A study of Mus musculus with 6 samples.

Results

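The genes followed here are 36 markers of blood cells, grouped as pan-leukocyte (10 genes), macrophage (11), neutrophil (4), lymphoid (5), erythroid (2), platelet (3) and progenitor (1). All 36 symbols were found among the 24672 genes of the deposited table. The markers were chosen by symbol, with the FPKM levels and group differences of these libraries already known, so the levels and the calls below are descriptions and support nothing independently of that choice. No threshold on a value entered the choice.

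Poly(A) RNA of cultured C57BL/6 mouse cells beyond passage 20 was sequenced in 3 FGSC libraries and 3 Dif-FGSC libraries. FGSC, described as proliferating germline cells of the ovary, grew on inactivated STO fibroblasts with serum, LIF, EGF, bFGF and GDNF. For Dif-FGSC the fibroblast feeder was removed and the cells were seeded on inactivated granulosa cells in serum with retinoic acid (0.1 µmol/L), BMP4 (10 ng/mL) and bFGF. Feeder, growth factors and retinoic acid therefore changed together and cannot be told apart. The labels do not say whether replicates are separate cultures, and the p-values below reflect the spread among these libraries, which may be technical.

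The steps between low values gave an estimated 17.4 to 27.3 M fragments per library (M, mega). The defining markers of the labelled cell type were at or near 0. The 12 germ cell markers examined, Ddx4 and Dazl among them, stayed at or below 0.749 FPKM (fragments per kilobase of transcript and per M mapped fragments) in every library, and 10 of the 12 stayed under 0.1 FPKM. The highest of them was Zbtb16, a transcription factor of undifferentiated germ cells, at 0 in every FGSC library and 0.433, 0.478 and 0.749 FPKM in Dif-FGSC. Summed over the list, the germ cell markers reached 0.101 to 0.369 FPKM in FGSC and 0.740 to 1.04 in Dif-FGSC. The 10 fibroblast markers summed to 0.337 to 0.639 and 0.164 to 0.239 FPKM, with the collagen gene Col3a1 at 0 and the surface protein gene Thy1 highest, at means of 0.363 and 0.113. The 9 granulosa markers summed to 0.663 to 0.843 and 0.474 to 0.674 FPKM, with the transcription factor gene Foxl2 at 0 and the hormone gene Amh highest, at means of 0.492 and 0.374. Their part in the results below was not tested.

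Leukocytes of every kind share a set of surface and cytoskeletal proteins, among them the phosphatase CD45, tetraspanins, and actin regulators such as coronin and WASP. Each lineage then adds its own products, such as complement C1q and F4/80 in macrophages, granule proteases in neutrophils, CD3 and CD79 with the antigen receptors of T and B cells, globins in red cells, and the chemokines stored in platelets. Comparing these layers shows which of them a bulk RNA sample contains. In bulk RNA, fewer cells of a type and less RNA per cell cannot be told apart.

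The pan-leukocyte layer was present throughout, while most markers of single lineages did not reach 1 FPKM in every library. All 10 pan-leukocyte markers stood at 1 FPKM or more in every library, and their summed level was 531 to 542 FPKM in FGSC and 616 to 623 in Dif-FGSC. The same held for 3 of 11 macrophage markers, 1 of 2 erythroid markers, and none of the 4 neutrophil, 5 lymphoid and 3 platelet markers or the progenitor marker. The neutrophil markers summed to at most 0.178 FPKM. In all, 13 of the 36 markers stayed under 0.1 FPKM in every library and 7 of those were listed at 0 throughout.

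**Figure D1:**
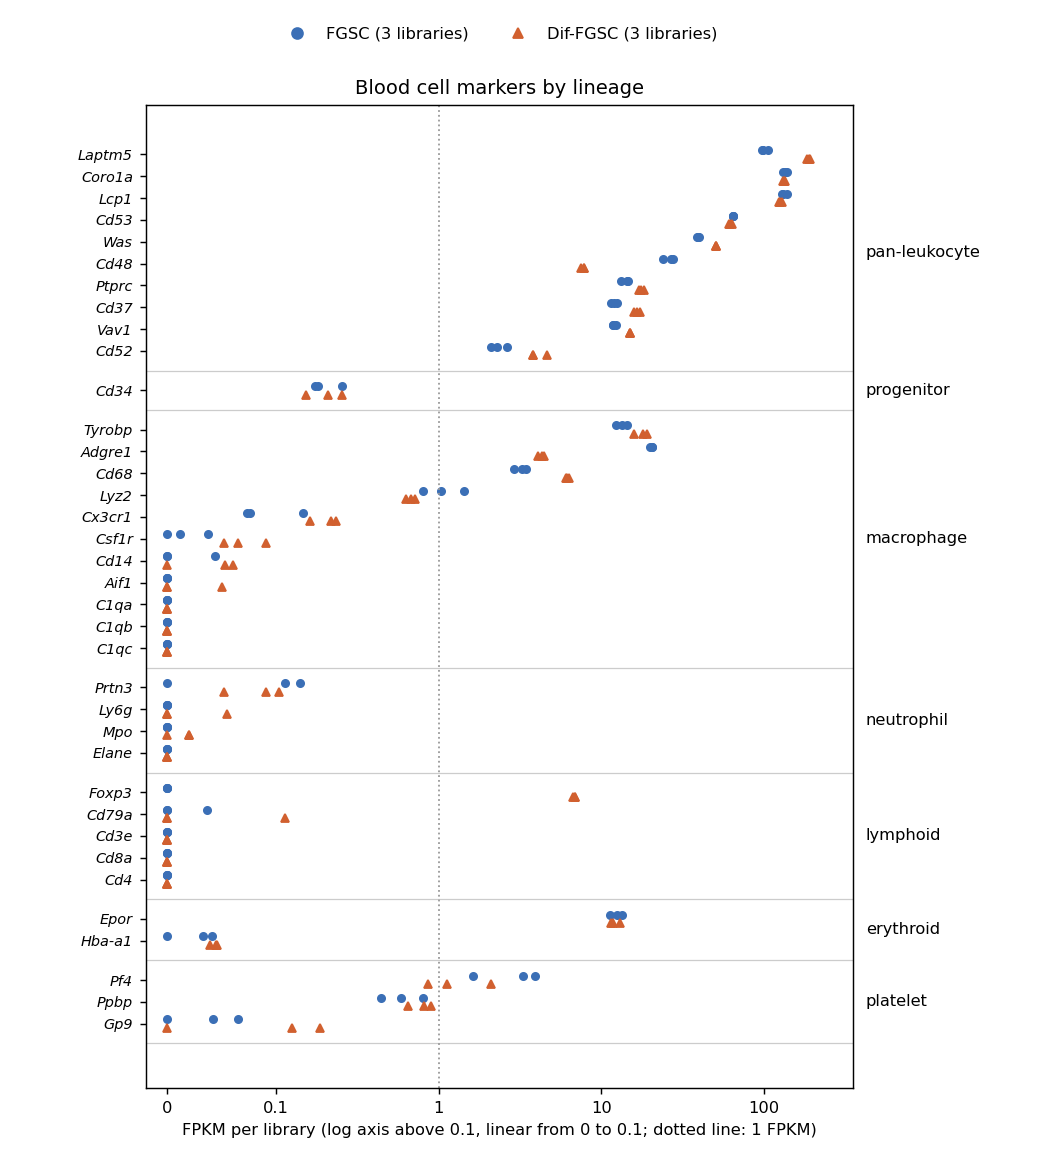
FPKM of each of the 36 markers (rows, grouped by lineage) in the 3 FGSC libraries (blue circles) and the 3 Dif-FGSC libraries (orange triangles), on an axis that is linear from 0 to 0.1 and logarithmic above. All 10 pan-leukocyte markers lie to the right of the dotted line at 1 FPKM, while most markers of single lineages lie at or near 0.

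Group differences were taken from a fit over the whole table on log2(FPKM + 1), with limma and Benjamini-Hochberg adjustment, for genes with a mean of at least 1 FPKM, and a gene was called at an adjusted p under 0.05. Of the 36 markers 16 passed this filter and 20 did not. Of the 16, 9 were higher in Dif-FGSC, 3 were lower and 4 were not called, where 36.5% of the 9162 genes tested were higher, 28.6% were lower and 65.1% were called in either direction. The groups did not overlap for 13 of the 16, against 70.7% of all genes tested. Among the 16, Foxp3 passed the filter only through the Dif-FGSC libraries and so had to differ. Without it 8 of 15 were higher and 3 lower. Under median-ratio scaling the split was 9 higher and 5 lower. Over all 9162 genes that scaling gave 3030 higher and 2991 lower, against 3343 and 2622 on deposited values.

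**Figure D2:**
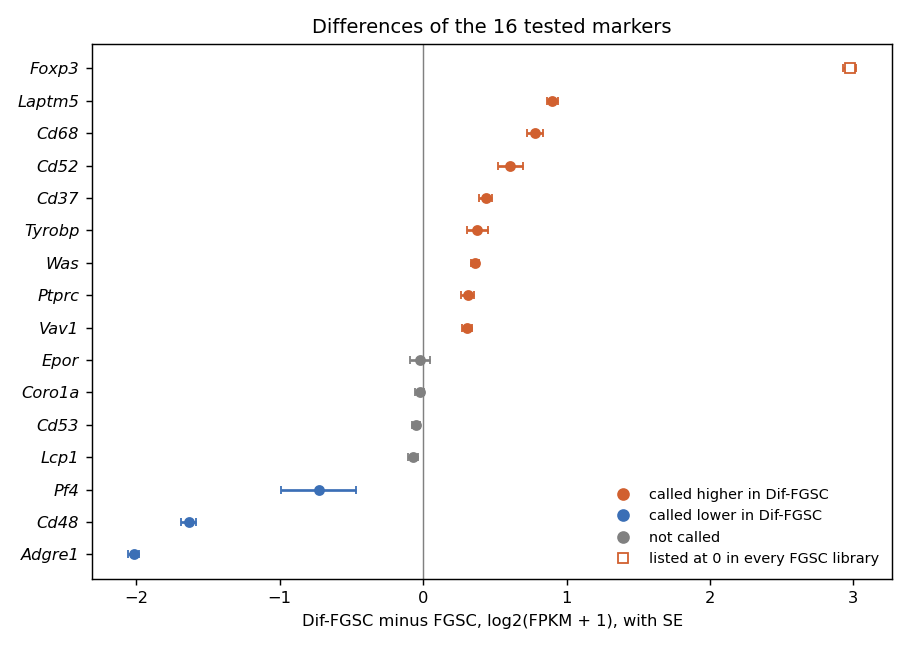
Difference between groups (Dif-FGSC minus FGSC, log2(FPKM + 1), bars: standard error of the fit) for the 16 markers with a mean of at least 1 FPKM. Adgre1 (-2.02) and Cd48 (-1.63) lie farthest to the left, and Foxp3 (open square), listed at 0 in every FGSC library, lies farthest to the right.

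Laptm5, a lysosomal membrane protein that dampens receptor signalling in blood cells, had the highest mean of the pan-leukocyte markers over all 6 libraries, and in FGSC alone it stood below Coro1a and Lcp1. It was listed at 97.6, 96.5 and 105.4 FPKM in FGSC and at 187.5, 191.7 and 182.5 in Dif-FGSC, with every Dif-FGSC library above every FGSC library. It rose 1.88-fold (log2 difference 0.90 ± 0.039 SE, limma adjusted p = 1.98e-06).

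Cd48 went the other way. It encodes a GPI-anchored protein of the SLAM family that is bound by the receptor CD244. It was listed at 26.8, 27.3 and 23.8 FPKM in FGSC and at 7.49, 7.78 and 7.78 in Dif-FGSC, so the groups stood far apart. It was 3.38-fold lower in Dif-FGSC (log2 difference -1.63 ± 0.054 SE, limma adjusted p = 5.67e-07). It was the only pan-leukocyte marker called lower in the fit on deposited values.

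Of the regulators of receptor signalling and actin, 3 rose by similar factors. Ptprc, the phosphatase CD45, was listed at 14.3, 13.2 and 14.5 FPKM in FGSC and 17.6, 17.1 and 18.2 in Dif-FGSC (log2 difference 0.31 ± 0.045 SE). Was, which encodes the actin nucleation promoter WASP, was listed at 39.9, 38.4 and 39.4 FPKM and at 50.7, 50.6 and 50.7 (0.36 ± 0.028 SE). Vav1, a guanine nucleotide exchange factor of blood cells, was listed at 11.8, 12.4 and 11.7 FPKM and at 15.0, 15.1 and 15.0 (0.31 ± 0.034 SE). For all 3 the groups did not overlap and the call was made (limma adjusted p = 0.000583, 2.48e-05 and 0.000155), and the ratios of Dif-FGSC to FGSC were 1.26, 1.29 and 1.26 in this order.

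The abundant cytoskeletal markers differed little. Coro1a, the actin-binding coronin of leukocytes, was listed at 137.0, 135.0 and 130.6 FPKM in FGSC and 132.1, 133.6 and 129.9 in Dif-FGSC, and the groups overlapped (log2 difference -0.02 ± 0.028 SE, limma adjusted p = 0.463). After quantile normalization its sign turned and it was called higher (0.07, adjusted p = 0.0343). Lcp1, the actin-bundling L-plastin, was listed at 128.9, 129.5 and 137.6 FPKM and at 123.1, 125.8 and 128.2 (-0.07 ± 0.034 SE, limma adjusted p = 0.106). The Lcp1 groups stood next to each other without overlapping, and median-ratio scaling made it a call (-0.11, adjusted p = 0.0225).

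The list holds 2 tetraspanins, membrane organisers of leukocytes. Cd37 was listed at 11.5, 12.0 and 12.5 FPKM in FGSC and at 17.3, 15.8 and 16.6 in Dif-FGSC, above all FGSC libraries (log2 difference 0.44 ± 0.047 SE, limma adjusted p = 0.000126). Cd53 was listed at 63.9, 64.1 and 64.2 FPKM and at 61.4, 61.0 and 63.2, a shift in the other direction that was not called (-0.05 ± 0.027 SE, limma adjusted p = 0.132) except with median-ratio scaling (-0.09, adjusted p = 0.0267). Whether the responses of these 2 genes differ from each other was not tested.

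Cd52, a very short GPI-anchored glycopeptide of lymphocytes and other leukocytes, was the lowest of the pan-leukocyte markers, at 2.62, 2.09 and 2.28 FPKM in FGSC and 3.78, 4.66 and 3.81 in Dif-FGSC. All Dif-FGSC libraries stood above the FGSC libraries (log2 difference 0.61 ± 0.086 SE, limma adjusted p = 0.000529).

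The macrophage markers split into a few that were expressed and several that were not. Adgre1, the adhesion receptor known as F4/80, was listed at 20.0, 20.6 and 20.5 FPKM in FGSC and at 4.44, 4.30 and 4.10 in Dif-FGSC. It was 4.75-fold lower in Dif-FGSC (log2 difference -2.02 ± 0.039 SE, limma adjusted p = 4.18e-08), and 99.4% of the genes tested had a smaller difference in either direction. Cd68, a glycoprotein of late endosomes and lysosomes, moved the other way. It was listed at 3.42, 2.89 and 3.27 FPKM in FGSC and at 6.07, 6.19 and 6.30 in Dif-FGSC, a 1.94-fold rise with no overlap (0.78 ± 0.055 SE, limma adjusted p = 1.67e-05). Tyrobp, the signalling adaptor DAP12 of myeloid and natural killer cells, was listed at 13.4, 12.3 and 14.4 FPKM and at 15.9, 18.1 and 19.0, also with no overlap (0.38 ± 0.074 SE, limma adjusted p = 0.00287).

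Lyz2, the lysozyme of macrophages and neutrophils, lay just under the filter with a mean of 0.879 FPKM, at 0.796, 1.43 and 1.03 in FGSC and 0.628, 0.675 and 0.715 in Dif-FGSC. All FGSC values lay above the Dif-FGSC values. It was not tested, and it stands beside Pf4 with a mean of 2.15 FPKM as the markers just outside and just inside the filter. Cx3cr1, the fractalkine receptor of monocytes and microglia, was listed at 0.146, 0.0730 and 0.0765 FPKM in FGSC and 0.236, 0.217 and 0.161 in Dif-FGSC. Csf1r, the receptor for the macrophage growth factor CSF1, did not exceed 0.0913 FPKM, an estimated 9.7 fragments. With no filter on low values Cx3cr1 and Csf1r were called higher, by 0.13 and 0.07 on the log2(FPKM + 1) scale.

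The remaining macrophage markers were at the limit of detection. Cd14, a co-receptor for lipopolysaccharide, did not exceed 0.0607 FPKM, and Aif1, the calcium-binding protein IBA1, had a value above 0 in 1 library, at 0.0506 FPKM or an estimated 1.0 fragment. C1qa, C1qb and C1qc, the 3 chains of complement C1q, were listed at 0 in all 6 libraries. In the shallowest library 3 fragments correspond to 0.166 FPKM for C1qa, 0.158 for C1qb and 0.143 for C1qc. A lower level could go undetected there, although single fragments were listed for other genes, such as Aif1.

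Further macrophage genes were listed by what they are known to mark, with earlier results of these data known. Of 17 such genes 15 stayed under 0.1 FPKM in every library, among them the scavenger receptors Cd163, Marco and Msr1. Fcgr1, the high-affinity IgG receptor, was the tested member and fell from 5.19 ± 0.729 to 4.19 ± 0.148 FPKM (SD, n = 3; limma adjusted p = 0.0331). That call was lost with no filter (adjusted p = 0.0773), without FGSC replicate 1 or 2 (0.0965 and 0.0993) and without any single Dif-FGSC replicate (0.0552, 0.0905 and 0.0844 for 1, 2 and 3). Mpeg1, which encodes perforin-2, followed at 0.0587 FPKM in FGSC and 0.0997 in Dif-FGSC.

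The neutrophil markers were not detected or stood near the floor. Elane, neutrophil elastase, was listed at 0 in every library, Mpo, myeloperoxidase, did not exceed 0.0200 FPKM, and Ly6g, the antigen used to identify mouse neutrophils, had a value above 0 in 1 library (0.0546 FPKM). Prtn3, the granule protease proteinase 3, reached 0.141 FPKM in FGSC and 0.104 in Dif-FGSC, an estimated 3.2 fragments at most.

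Of 12 further neutrophil genes 6 stayed under 0.1 FPKM in every library, with the calgranulins S100a8 and S100a9 at 0, and 3 were tested. Mmp8, neutrophil collagenase, stood at 3.60 ± 0.220 FPKM in FGSC and 0.379 ± 0.0769 in Dif-FGSC (SD, n = 3). It passed the filter only through the FGSC libraries, so its call is given no p. Lcn2, the iron-scavenging lipocalin of neutrophil granules, was listed at 0.0429, 0 and 0 FPKM in FGSC and at 2.02, 1.13 and 2.48 in Dif-FGSC, and Mmp9, a gelatinase, did not exceed 0.0288 and 0.223 FPKM. Neither was tested, and for both all Dif-FGSC values lay above the FGSC values. Ctsg, the granule protease cathepsin G that mast cells also make, fell from 6.17 ± 0.0478 to 3.34 ± 0.253 FPKM (SD, n = 3; limma adjusted p = 1.59e-05). Cxcr2, a chemokine receptor, stood at 27.3 ± 1.91 and 27.4 ± 0.444 FPKM and was not called (limma adjusted p = 0.961).

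Among the lymphoid markers only Foxp3 exceeded 0.114 FPKM. Cd3e, a subunit of the T cell receptor complex, and the co-receptors Cd4 and Cd8a were listed at 0 in all 6 libraries, with floors of 0.0676, 0.0555 and 0.0551 FPKM. Cd79a, a signalling chain of the B cell receptor, reached 0.0365 FPKM in FGSC and 0.114 in Dif-FGSC.

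Foxp3, the transcription factor of regulatory T cells, was listed at 0 in all 3 FGSC libraries and at 6.91, 6.91 and 6.73 FPKM in Dif-FGSC, an estimated 596 fragments in the highest library. No fold is given, because an exact 0 can be a failed estimate. In the RefSeq annotation of GRCm38.p6 the Foxp3 gene model overlaps that of Ccdc22, a gene of endosomal sorting. Ccdc22 was listed at 22.6, 24.1 and 23.7 FPKM in FGSC and at 19.9, 18.1 and 18.0 in Dif-FGSC and was called lower (log2 difference -0.32 ± 0.047 SE, limma adjusted p = 0.000687). How fragments were divided between the 2 gene models is not given in the sources used here, and the part of Ccdc22 in the Foxp3 values was not tested. In the same Dif-FGSC libraries the T cell markers Cd3e, Cd4 and Cd8a were at 0, while the T cell receptor gene Cd247 stood at 2.28, 2.39 and 1.97 FPKM.

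Of 18 further lymphoid genes 13 stayed under 0.1 FPKM in every library and 2 were tested. Cd247, the zeta chain of the T cell receptor complex, showed the Foxp3 pattern, at 0 in every FGSC library and 2.28, 2.39 and 1.97 FPKM in Dif-FGSC, and its gene model overlaps that of Pou2f1. Prf1, perforin, stood at 0.970 ± 0.146 FPKM in FGSC and 2.14 ± 0.338 in Dif-FGSC (SD, n = 3) without overlap. Both genes passed the filter only through the Dif-FGSC libraries, so their calls are given no p.

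**Figure D3:**
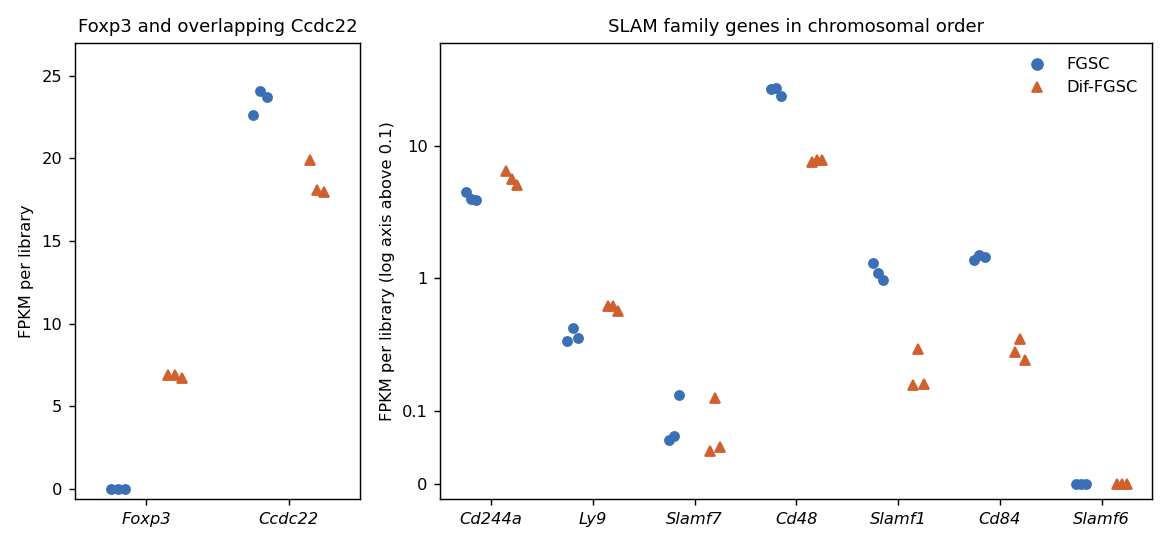
FPKM per library of Foxp3 and the overlapping gene Ccdc22 (left, linear axis) and of SLAM family genes around Cd48 in their order on the chromosome (right, logarithmic above 0.1 FPKM). Blue circles are FGSC and orange triangles Dif-FGSC libraries. Foxp3 lies at 0 in FGSC, and Cd48, Slamf1 and Cd84 are the genes of the right panel whose Dif-FGSC values all lie below their FGSC values.

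Cd48 lies in a cluster of SLAM family receptor genes, and its neighbours, chosen after their values were seen, differed in direction. Slamf1 was listed at 1.30, 1.09 and 0.973 FPKM in FGSC and 0.156, 0.291 and 0.158 in Dif-FGSC. Cd84 was listed at 1.38, 1.50 and 1.44 FPKM and at 0.278, 0.346 and 0.240. Cd244a, which encodes the receptor for CD48, rose from 4.11 ± 0.335 to 5.70 ± 0.683 FPKM (SD, n = 3; limma adjusted p = 0.004). Slamf1 and Cd84 had means under 1 FPKM and were not tested. Adgre1 and Vav1 are adjacent protein-coding genes in GRCm38.p6, and these 2 markers moved in opposite directions.

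The erythroid markers stood apart from each other. Epor, the erythropoietin receptor, was listed at 13.3, 12.5 and 11.2 FPKM in FGSC and 11.5, 13.1 and 11.8 in Dif-FGSC, with overlapping groups and no call (log2 difference -0.02 ± 0.069 SE, limma adjusted p = 0.787). Hba-a1, an alpha globin gene with a near-identical copy, did not exceed 0.0456 FPKM, an estimated 0.63 fragments. Of 12 further erythroid genes 9 stayed under 0.1 FPKM in every library, including the beta globins Hbb-bs and Hbb-bt at 0. Gfi1b, a transcription factor of red cell and platelet precursors, rose from 5.95 ± 0.147 to 8.66 ± 0.884 FPKM (SD, n = 3; limma adjusted p = 0.000579). Rhag, a red cell membrane protein, stood at 0.138 and 0.712 FPKM and was not tested.

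Among the platelet markers Pf4, the chemokine platelet factor 4, was the most variable tested marker. It was listed at 3.30, 1.63 and 3.91 FPKM in FGSC and at 2.11, 1.13 and 0.857 in Dif-FGSC, and the groups overlapped because the second FGSC library stood below the first Dif-FGSC library. It was called lower (log2 difference -0.73 ± 0.262 SE, limma adjusted p = 0.0408), but the call was lost without FGSC replicate 1 (adjusted p = 0.111) or 3 (0.119), without Dif-FGSC replicate 2 (0.107) or 3 (0.132), and with no filter on low values (0.0993). Ppbp, a chemokine precursor stored with it, was listed at 0.440, 0.802 and 0.584 FPKM and at 0.818, 0.894 and 0.652, with overlapping groups. Gp9, a subunit of the platelet receptor for von Willebrand factor, did not exceed 0.186 FPKM.

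Of 12 further platelet genes 6 stayed under 0.1 FPKM in every library and 3 were tested. Itga2b, the integrin chain CD41 of megakaryocytes that mast cells also carry, fell from 53.0 ± 2.09 to 47.1 ± 1.06 FPKM (SD, n = 3; limma adjusted p = 0.0052). Nbeal2, a gene of platelet granule formation, rose from 17.3 ± 1.10 to 22.4 ± 1.01 FPKM, and Itgb3, the integrin beta chain that pairs with CD41, from 16.2 ± 1.78 to 20.7 ± 0.162 (limma adjusted p = 0.000696 and 0.00315). Gp6, the collagen receptor of platelets, was listed at 0 throughout.

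Cd34, the surface sialomucin of blood progenitors and endothelium, stood at 0.256, 0.182 and 0.175 FPKM in FGSC and 0.153, 0.210 and 0.255 in Dif-FGSC, with overlapping groups. Of 8 further progenitor genes 4 stayed under 0.1 FPKM in every library. Slamf1, given above as a neighbour of Cd48, is also on this list. Its mean was 1.12 FPKM in FGSC and 0.202 in Dif-FGSC, the groups did not overlap, and it was not tested. Hlf, a transcription factor of blood stem cells, stood at 13.0 ± 1.24 and 12.2 ± 0.372 FPKM and Meis1, a homeobox factor, at 2.07 ± 0.0419 and 2.35 ± 0.277 (SD, n = 3), and neither was called.

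Further pan-leukocyte genes were as widely present as the listed ones. Of 18 such genes 17 were at 1 FPKM or more in every library, and of these 9 were higher, 7 lower and 1 was not called. Over all genes tested 36.5% were higher and 28.6% lower. The median log2 difference was 0.13 for these genes against 0.03 over all genes tested. Fermt3, the kindlin of blood cells, rose from 46.2 ± 1.69 to 82.5 ± 0.898 FPKM, and Inpp5d, the phosphatase SHIP1, from 11.2 ± 0.331 to 17.6 ± 0.146. Plek, the kinase substrate pleckstrin, fell from 99.3 ± 7.98 to 73.5 ± 3.14 FPKM, and Arhgdib, a regulator of small GTPases in blood cells, from 99.6 ± 2.01 to 89.6 ± 1.34 (SD, n = 3 for all). The limma adjusted p was 1.47e-06, 5.67e-06, 0.000466 and 0.00195 in this order. Lsp1 was the exception in level, at no more than 0.0595 FPKM.

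Markers of mast cells and basophils, which the 36 genes do not include, were mixed in level. Of 14 such genes 3 stood at 1 FPKM or more in every library and 5 stayed under 0.1 FPKM. Of the 4 tested, 3 were higher (Kit, Srgn and Mcpt8), 0 lower and 1 not called. The shares over all genes tested were 36.5% higher and 28.6% lower. Cpa3, the mast cell carboxypeptidase, stood at 288 ± 19.0 and 301 ± 10.5 FPKM and was not called (log2 difference 0.07, limma adjusted p = 0.27) except after quantile normalization (0.25, adjusted p = 0.00238). Kit, the stem cell factor receptor, rose from 89.0 ± 5.20 to 114 ± 0.931 (SD, n = 3; adjusted p = 0.000195). Srgn, the granule proteoglycan serglycin, rose from 51.4 ± 2.84 to 74.1 ± 2.75 FPKM (limma adjusted p = 5.41e-05). Mcpt8, a basophil granule protease, stood at 0.596 ± 0.147 FPKM in FGSC and 8.21 ± 0.925 in Dif-FGSC, and it passed the filter only through the Dif-FGSC libraries. The IgE receptor alpha chain Fcer1a did not exceed 0.0431 FPKM, and the tryptase Tpsb2 was listed at 0. Cma1, also on the mast cell list, stood at 0.0336, 0 and 0.0527 FPKM in FGSC and 1.62, 0.841 and 1.25 in Dif-FGSC. Its groups did not overlap, and it was not tested. None of the 6 eosinophil genes in the table was tested, with Siglecf, a lectin of eosinophils, the highest at means of 0.172 and 0.506 FPKM, and Il5ra, the interleukin 5 receptor, at 0.121 and 0.276. Among the 8 dendritic cell genes was Clec10a, a lectin also found on macrophages. It stood at 10.5 ± 1.43 and 10.1 ± 0.439 FPKM and was not called. Itgax, also on this list, was listed at 0.0543, 0.0226 and 0.114 FPKM in FGSC and at 0.901, 0.911 and 0.889 in Dif-FGSC. Its groups did not overlap, and it was not tested. Zbtb46, a factor of classical dendritic cells whose gene model overlaps Lime1 and Zgpat, was near the filter at 1.03 and 1.24 FPKM, and its call (adjusted p = 0.0495) was lost in 9 alternatives (adjusted p from 0.0575 to 0.185), which include the replicate block and leaving out any library but FGSC replicate 2.

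**Figure D4:**
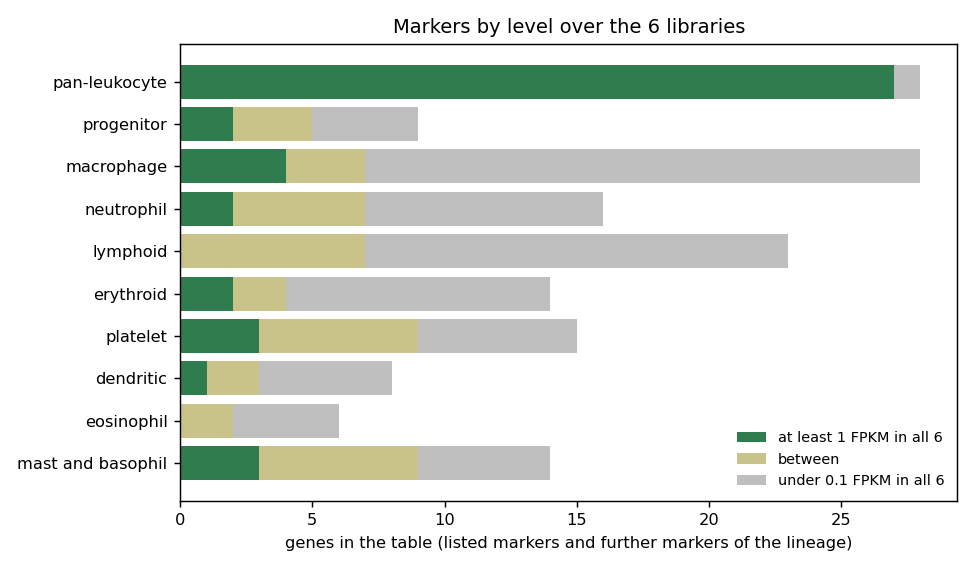
Number of genes in the table per lineage, the 36 markers and the further genes together, split by whether they reached 1 FPKM in all 6 libraries, stayed under 0.1 FPKM in all 6, or lay between. Of 28 pan-leukocyte genes 27 reached 1 FPKM throughout, against 4 of 28 macrophage genes and none of 23 lymphoid genes.

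Promoter sequences of the markers were read from RefSeq for GRCm38.p6 to show what lies upstream of genes that rose, fell or were at 0. Of the 36 markers 29 had an entry. Adgre1, which fell farther than Cd48, was not among them. Printed are the 250 bases upstream of the annotated start, on the strand of the gene, of the 2 largest rises among markers above 0 in every library (Laptm5 and Cd68), of the fall of Cd48, and of C1qb as a macrophage gene listed at 0. Capitals mark GAGGAA or its reverse complement TTCCTC, a stretch bound by ETS factors such as PU.1 of blood cells. Shorter matches within these letters, such as GGAA or TTCC, were neither marked nor counted. The windows are chr4:130913066-130913315 (+) for Laptm5, chr11:69666171-69666420 (-) for Cd68, chr1:171681742-171681991 (+) for Cd48 and chr4:136886201-136886450 (-) for C1qb.
Laptm5: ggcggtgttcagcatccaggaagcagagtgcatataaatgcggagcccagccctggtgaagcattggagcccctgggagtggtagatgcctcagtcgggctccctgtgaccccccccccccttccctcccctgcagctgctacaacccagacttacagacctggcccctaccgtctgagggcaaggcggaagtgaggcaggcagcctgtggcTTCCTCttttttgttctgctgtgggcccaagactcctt
Cd68: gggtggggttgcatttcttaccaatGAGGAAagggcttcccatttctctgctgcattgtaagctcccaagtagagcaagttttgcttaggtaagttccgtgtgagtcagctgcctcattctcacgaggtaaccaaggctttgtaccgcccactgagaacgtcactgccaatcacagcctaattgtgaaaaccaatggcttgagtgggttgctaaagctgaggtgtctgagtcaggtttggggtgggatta
Cd48: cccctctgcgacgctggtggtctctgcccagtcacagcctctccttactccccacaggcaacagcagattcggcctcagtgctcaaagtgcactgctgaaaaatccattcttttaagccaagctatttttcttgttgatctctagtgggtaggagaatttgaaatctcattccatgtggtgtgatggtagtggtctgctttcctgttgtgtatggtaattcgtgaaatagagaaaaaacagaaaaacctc
C1qb: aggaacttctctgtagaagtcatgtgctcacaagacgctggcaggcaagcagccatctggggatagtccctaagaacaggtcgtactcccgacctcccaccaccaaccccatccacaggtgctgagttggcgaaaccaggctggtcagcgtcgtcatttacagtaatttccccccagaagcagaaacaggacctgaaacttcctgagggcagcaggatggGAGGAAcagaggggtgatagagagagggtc

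The full letters GAGGAA or TTCCTC occurred once in the windows of Laptm5, Cd68 and C1qb and not in that of Cd48, which does hold the shorter TTCC. Counting a gene if any of its annotated starts held the letters on either strand, they were found for 7 of the 13 tested markers with an entry, for 11 of the 16 untested markers and for 25.9% of 27025 genes. The GATA letters AGATAA or TTATCT were found for 3 of the 13 and 0 of the 16, against 11.4% of all genes, and the RUNX letters TGTGGT or ACCACA for 4 of each, against 15.9%. In the printed windows, Cd48 held the RUNX letters and none held the GATA letters. A match is a description of the letters and not a binding site.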

How the data were processed

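The authors deposited 1 table of FPKM values per gene symbol and library, and the unit follows from its name. HISAT2 4.8.2, Cufflinks 2.2.1 and the mouse build mm9 are named in the submitters' processing notes without their roles. The sources used here give neither annotation nor strand setting, and values of overlapping or near-identical genes are uncertain. Libraries were made with a stranded mRNA kit, per the labels' protocols. The column prefix con was read as FGSC, and every direction rests on that reading.

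Of 24674 rows, the higher of each of 2 duplicated symbols was kept, and 1 stray value beyond the library columns was left out. FPKM values, which are not counts, were tested as log2(FPKM + 1) with limma 3.58.1 in R 4.3.3 (lmFit, eBayes with trend, two-sided, all 6 libraries, no block) for 9162 genes with a mean of at least 1 FPKM, with Benjamini-Hochberg adjustment over all of them. This scale understates changes of low genes. The script was tested on simulated data. An exact permutation test of a single gene with 3 against 3 libraries cannot go below p = 0.1. Depth came from FPKM steps of genes with a single transcript in GENCODE M21, of which 67.0% to 69.7% per library lay within 0.1 of a whole fragment. Fragment numbers are approximate, use the longest transcript and cover counting error only. Gene models and neighbours were read from RefSeq GRCm38.p6.

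The 36 members and the further gene lists were chosen with earlier results of these data known. Named were all members and, of each further list, up to 2 called genes with the largest difference and non-overlapping groups and up to 2 with the highest mean. Of each list of other cell types the highest gene was named. Lsp1, Cd163, Marco, Msr1, S100a8, S100a9, Hbb-bs, Hbb-bt, Gp6, Fcer1a, Tpsb2, Ddx4, Dazl, Col3a1, Foxl2, Ccdc22, Cd244a, Slamf1, Cd84, Lcn2, Mmp9, Itgax and Cma1 were named after their values were seen. The 5 endothelial markers summed to at most 0.462 FPKM (highest Pecam1) and the 5 epithelial markers to at most 0.013 (highest Cdh1). Alternatives were another pseudocount, filter and scaling, a replicate block, and leaving out each library.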

Additional observations from a re-analysis of the deposited data

How the results depend on the processing

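The counts of markers and of further blood genes were recomputed under 13 alternatives, and those not mentioned here stayed within 1.5 times. With median-ratio scaling 5 markers were lower in place of 3, the additions being Cd53 and Lcp1. Of all 9162 genes tested 2991 were then lower in place of 2622, and 3030 higher in place of 3343. Without a filter on low values 30 further blood genes were higher in place of 18, from a larger number of genes tested. Of all 14637 genes then tested 3657 were higher, against 3343 of 9162 with the filter. After quantile normalization the log2 difference of Coro1a turned from -0.025 to 0.073. Leaving out each library in turn gave 9 higher markers each time and 2 to 3 lower, and 14 to 18 higher and 8 to 10 lower further genes. Over all genes tested these fits gave 2984 to 3401 higher and 2317 to 2565 lower. Foxp3 is among the higher markers each time and had to differ, as it passed the filter only through Dif-FGSC. The further counts likewise hold Cd247, Prf1, Mcpt8 and Mmp8, where tested, which passed the filter through a single group. Scaling moved the median log2 difference of all genes tested from 0.029 to -0.0036 (median-ratio) and -0.022 (quantile). Restricting the fit to genes above 0 in every library, chosen after the data were seen, left 8 markers higher and 3 lower. Of the 9078 genes in that fit 3326 were higher and 2644 lower.

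Same-numbered libraries of the groups did not all deviate together (correlations 0.13, 0.01 and 0.17 for replicates 1, 2 and 3), so the numbers were not taken to pair the samples, and FGSC replicate 2 correlated best with Dif-FGSC replicate 1. With the replicate block, 9 markers were higher and 3 lower, and 17 and 10 further blood genes. Over all 9162 genes the block gave 3241 higher and 2557 lower. No group had 4 libraries or more, so no library was tested as an outlier within its group. Depth limits what can be said of genes near 0: for a transcript of 2000 bp, 3 fragments correspond to 0.055 to 0.086 FPKM.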

Other observations

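Foxp3 and Cd247 belong to 21 of 9162 tested genes that were listed at 0 in every FGSC library and at 1 FPKM or more in every Dif-FGSC library, and 8 genes showed the opposite pattern. Both gene models overlap that of another gene with a mean above 0.5 FPKM, Ccdc22 and Pou2f1. Zbtb46 also overlaps such genes, Lime1 and Zgpat, without this pattern. How many of the 21 genes overlap another gene was not counted. The fragments could not be assigned from FPKM values, so the cause was not tested.

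Around Pf4 on the chromosome, Cxcl3, a chemokine gene, was listed at 0.827, 0.987 and 0.564 FPKM in FGSC and 0.391, 0.350 and 0.148 in Dif-FGSC, below all FGSC libraries, while its other neighbour Ppbp overlapped between groups. Cxcl3 was chosen after its values were seen and was below the filter.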
